A study of Mus musculus with 6 samples.

Results

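The collagen chains are the genes of the mouse *Col* family, and members were taken as every row of the deposited expression table whose symbol reads Col, a number, the letter a and a number. The rule found 40 of the 19078 genes in the table. The table comes from RNAseq of poly(A)-selected RNA from immortalized mouse fibroblasts (MF), with 3 *Ms4a15* OE libraries and 3 control libraries. *Ms4a15* OE cells are a pooled population in which CRISPR activation raises transcription of *Ms4a15*, a gene whose product the study links to resistance against ferroptosis. The labels give the control cells as wild type, and the paper describes them as carrying an empty vector. According to the paper, the fibroblasts are male, of embryonic origin, and carry a conditional *Gpx4* knockout together with the tamoxifen-dependent recombinase Cre-ERt2, which both groups share. GPX4 is the peroxidase that protects membranes from ferroptosis, and no induction of its loss is given for these libraries. All 6 libraries are from cells grown in DMEM with serum.

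The only values used were the authors' mean of normalized counts, taken over both groups together. Fold changes and p-values of *Ms4a15* OE against control in the table are the authors' own comparison and were not used. No table of the separate libraries was used here, so no difference between *Ms4a15* OE and control is reported, and no value has an SD. A mean over both groups can hide a chain that is high in one of them and absent in the other. *Ms4a15* itself had a mean of 638 normalized counts, which does not check the labels, since both groups enter it.

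Collagens are secreted proteins made of chains that wind around each other as trimers, in which glycine recurs at regular steps along the helix. Fibrillar collagens form the cross-striated fibrils of connective tissue. Network collagens build the sheets of basement membranes, FACITs lie on the surface of fibrils, beaded collagens form fine filaments around cells, and transmembrane collagens stay anchored in the plasma membrane. Multiplexins sit at basement membranes and release fragments such as endostatin, and type VII collagen forms the anchoring fibrils under epithelia. Fibroblasts are the main producers of fibrillar collagen.

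The chains covered nearly the whole range of the table, from 135155 normalized counts for *Col1a2* to 0.147 for *Col27a1*. Together they held 0.809% of the sum of all means. Of the 40 chains, 15 had a mean of at least 1000 normalized counts (37.5%, against 35.0% of all genes in the table). Another 4 lay between 100 and 1000, and 12 lay below 100 but above a floor of 3 counts per library, which equals a mean of 3.01 normalized counts. The remaining 9 were not above this floor, so that 77.5% of the chains exceeded it, against 75.8% of all genes. The median of the chains was 86.3 normalized counts, against 237 for all genes in the table. To compare chains of different length, each mean was divided by the length of the longest annotated transcript in kilobases (kb). The rank of a chain is given among the 16548 genes with a known length, and 15 of the 40 chains were above the median of these genes per kb.

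**Figure D1:**
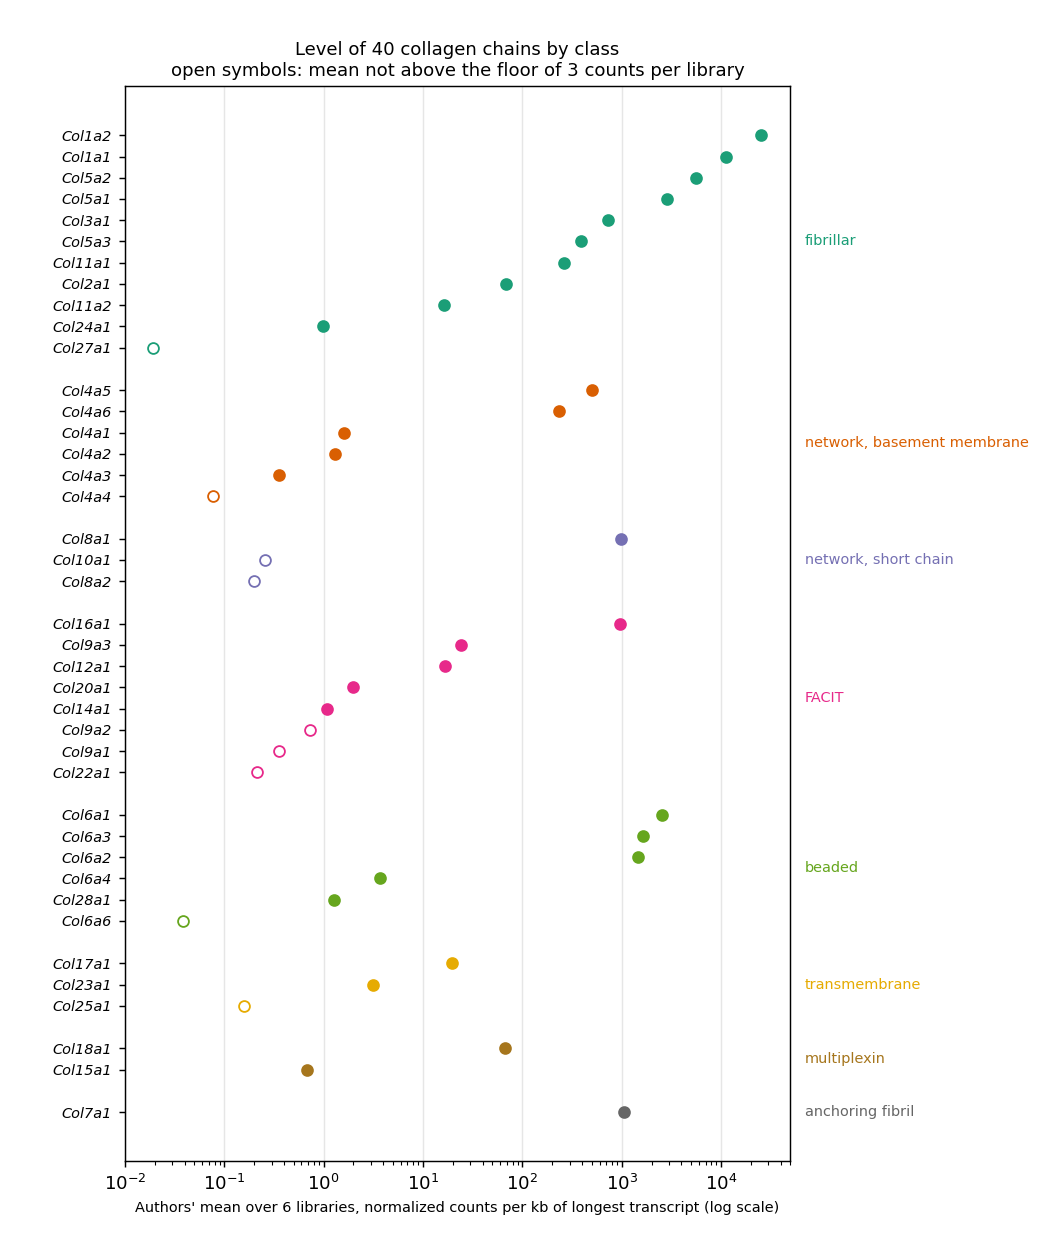
Authors' mean over 6 libraries in normalized counts per kb of longest transcript (horizontal, log scale) for each of the 40 collagen chains, grouped and coloured by class, with open symbols for the 9 chains not above the floor of 3 counts per library. The 4 highest points are all fibrillar, and each of the 6 classes of 3 or more chains reaches below 1 normalized count per kb.

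Fibrillar chains made up 83.0% of the collagen signal per kb, and 10 of the 11 exceeded the floor, against 75.8% of all genes. *Col1a2* and *Col1a1*, which encode the α2 and α1 chains of type I collagen, the main collagen of skin, tendon and bone, led the family. On the GRCm38 build, *Col1a2* spans 4504814 to 4541544 of chromosome 6, and *Col1a1* 94936224 to 94953042 of chromosome 11. The level of *Col1a2* was 25272 normalized counts per kb, rank 76 of the genes with a known length. That of *Col1a1* was 11295 normalized counts per kb from a mean of 66981 normalized counts, rank 181. Both type I chains together held 65.3% of the collagen signal per kb. *Col1a2* was 2.24 times as high as *Col1a1* per kb and 2.02 times in normalized counts. Most type I trimers are known to hold a pair of α1 chains and a single α2 chain, so the order of the transcripts was the reverse of the order of the chains in the protein.

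Type V collagen, which starts the assembly of type I fibrils and sets their width, came next. *Col5a2* had 5565 and *Col5a1* 2879 normalized counts per kb, ranks 433 and 949. *Col5a3*, which encodes another chain of this type, was lower, at 392 normalized counts per kb, and *Col5a1* was 7.35 times as high. *Col3a1*, the single chain of type III collagen, which forms fine fibrils together with type I in soft tissues, had a mean of 4104 normalized counts and 738 per kb. *Col1a1* was 15.3 times as high per kb. *Col3a1* and *Col5a2* are neighbours on chromosome 1, arranged tail to tail with 24614 bases between them, and *Col5a2* was the higher of them.

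Among the fibrillar chains that are typical of cartilage, *Col11a1* had 266 normalized counts per kb and *Col11a2* 16.3. *Col2a1*, the main fibrillar chain of cartilage, had a mean of 349 normalized counts and 68.4 per kb. The cartilage proteoglycan gene *Acan* was listed at a mean of 0.700 and did not exceed the floor, while *Sox9*, a transcription factor of cartilage and other tissues, had 1106 normalized counts and the cartilage matrix gene *Comp* 9.38. Of the fibrillar chains with a developmental role, *Col24a1* had a mean of 7.01 normalized counts, and *Col27a1* the lowest mean of the family.

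The basement membrane chains of type IV collagen fell into unequal pairs. Their 6 genes lie in pairs that start next to each other and are read in opposite directions. *Col4a5* (chromosome X, 141475385 to 141689234) and *Col4a6* (chromosome X, 141165403 to 141474076) start 1309 bases apart, and both were well expressed. The mean of *Col4a5* was 3329 normalized counts and that of *Col4a6* 1566, a ratio of 2.16 per kb. *Col4a1* and *Col4a2*, the chains found in almost every basement membrane, start 21 bases apart on chromosome 8. Their means were only 10.7 and 8.34 normalized counts. *Col4a5* was thus 314 times as high as *Col4a1* per kb, and *Col4a6* was 182 times as high as *Col4a2*. *Col4a3* and *Col4a4*, best known from the filtration barrier of the kidney, start 72 bases apart on chromosome 1 and had means of 3.03 and 0.775. *Col4a1* was 1.26 times as high as *Col4a2* per kb. The lowest pair rests on few reads, 19 for *Col4a3* and 5 for *Col4a4*. Whether the members of either pair differ was not tested. The annotated exons of *Col4a1* and *Col4a2* overlap by 22 bases on opposite strands.

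The bases just upstream of *Col4a5* and *Col4a6* are shown, since this pair had the highest levels of the 3. The sequences are from RefSeq on GRCm38.p6, run towards each gene's start on its own strand and stop where the first annotated exon begins. Capitals mark the GC box, GGGCGG or its reverse complement.
Col4a5 (chrX:141475169-141475384, forward strand): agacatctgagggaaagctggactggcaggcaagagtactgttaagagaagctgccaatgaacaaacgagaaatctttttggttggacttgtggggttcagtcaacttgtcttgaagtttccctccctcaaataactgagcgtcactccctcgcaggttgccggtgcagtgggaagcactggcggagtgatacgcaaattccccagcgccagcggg
Col4a6 (chrX:141474077-141474326, reverse strand): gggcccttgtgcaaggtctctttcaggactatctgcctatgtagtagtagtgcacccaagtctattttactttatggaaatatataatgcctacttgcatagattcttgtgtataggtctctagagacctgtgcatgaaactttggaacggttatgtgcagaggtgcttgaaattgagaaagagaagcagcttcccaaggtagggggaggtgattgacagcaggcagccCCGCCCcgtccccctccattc
The stretch of *Col4a6* holds 1 GC box and that of *Col4a5* holds 0, although the rest of its window, past the exon start, does hold it. RefSeq windows from 250 bases before to 50 after the start were matched for 32 of the 40 chains, 35 windows in all. A GC box on either strand was present in 22 of these windows (62.9%, against 35.7% of all 32851 windows). CCAAT was present in 13 (37.1%, against 37.4%) and TATAAA in 4 (11.4%, against 13.6%). Whether a motif was more frequent in the windows of the higher chains was not tested.

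Of the short-chain network collagens, only *Col8a1* exceeded the floor. *Col8a1*, known from the hexagonal lattice under the corneal endothelium and from vessel walls, had a mean of 5030 normalized counts and 985 per kb. *Col8a2*, which encodes the other chain of type VIII collagen, was listed at 0.856, which equals 5 reads spread over 5 of the 6 libraries. *Col10a1*, a marker of hypertrophic cartilage, had 5 reads in 4 libraries.

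**Figure D2:**
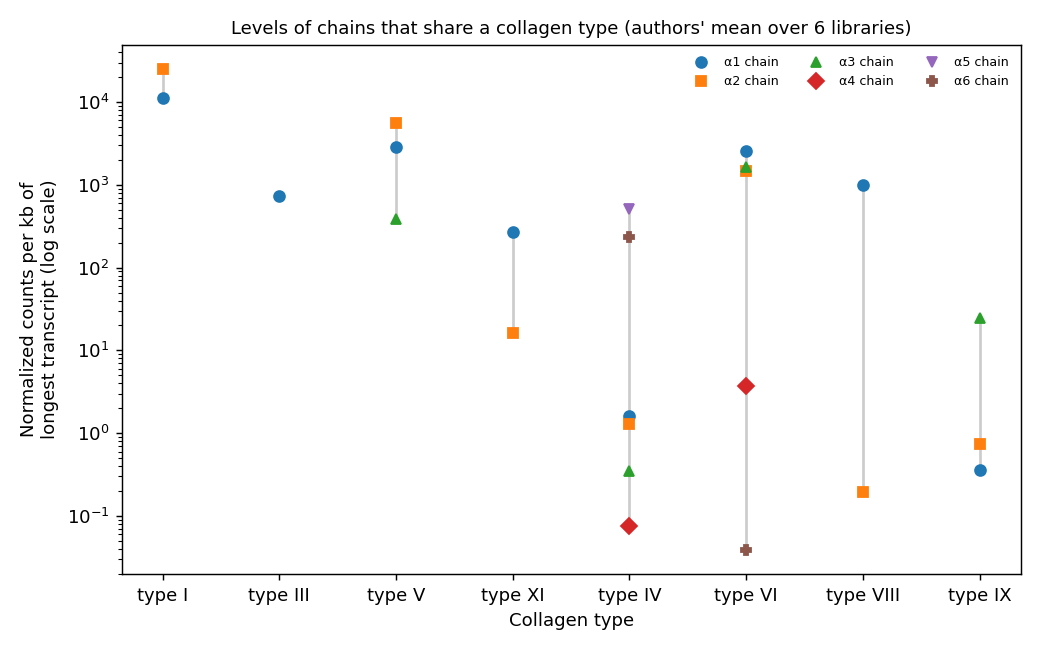
Normalized counts per kb of longest transcript (vertical, log scale; authors' mean over 6 libraries) of the chains of 8 collagen types, with a marker shape and colour for each chain number and a grey line over the range within a type. The chains α1, α2 and α3 of type VI lie close together, whereas α5 and α6 of type IV and α1 of type VIII lie far above the other chains of their types.

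Beaded chains held 10.1% of the collagen signal per kb, nearly all of it from type VI collagen, which forms microfilaments close to the cell surface. *Col6a1*, *Col6a3* and *Col6a2*, whose products join in a single trimer, had 2542, 1632 and 1476 normalized counts per kb. Their levels were close to each other, with *Col6a1* at 1.56 times *Col6a3* and 1.72 times *Col6a2*. The longest annotated transcript of *Col6a2* retains an intron. Per kb of coding length, *Col6a2* was 1.40 times as high as *Col6a3*, so the order of these chains rests on the length used. *Col6a1* and *Col6a2* lie on the same strand of chromosome 10 with 85161 bases between them. The alternative chains *Col6a4* and *Col6a6* had means of 27.5 and 0.339, the latter equal to 2 reads in 2 libraries. *Col28a1*, a related chain found around nerves, had a mean of 5.38 normalized counts.

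Among the 8 FACIT chains, which held 1.78% of the signal per kb, *Col16a1* stood well above the others. Its mean was 4967 normalized counts, 954 per kb. *Col12a1* and *Col14a1*, the FACITs of tendon and skin that bind type I fibrils, had means of 192 and 7.02 normalized counts. Type IX collagen, which decorates the fibrils of cartilage, is a trimer of 3 different chains, and its genes were uneven. *Col9a3* had a mean of 74.0 normalized counts, while *Col9a2* had 13 reads in 5 libraries and *Col9a1* 9 reads in 3 libraries, 7 of them in a single library. The exons of *Col9a3* overlap those of *Tcfl5* on the opposite strand. *Col20a1* had a mean of 9.87 normalized counts, and *Col22a1*, a collagen of tissue junctions, 12 reads in 4 libraries.

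*Col7a1*, the chain of the anchoring fibrils that tie epidermis to dermis, was among the 10 highest chains. It lies on chromosome 9 from 108953586 to 108984875, and its longest transcript has 119 exons, the most of the family. Its mean was 9706 normalized counts and 1049 per kb, rank 2818. The multiplexin *Col18a1*, source of endostatin, had a mean of 375 normalized counts, and *Col15a1* had 21 reads in 5 libraries, 11 of them in a single library. The transmembrane chains were the lowest class, with 0.0408% of the collagen signal per kb from 3 of the 4 listed chains. *Col13a1* had no matching row. *Col17a1*, a hemidesmosome collagen of epithelial cells, had a mean of 109 normalized counts and *Col23a1* one of 18.0. *Col25a1*, known from motor neurons and amyloid plaques, had 6 reads in 3 libraries.

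The numbers of reads in single libraries were worked out for the 11 chains with a mean below 4. In each of them, exactly 1 combination of whole reads over the 6 libraries gave the deposited mean. The libraries behind these reads carry no label, so none of them was assigned to *Ms4a15* OE or control. The totals ran from 1 read for *Col27a1* to 21 for *Col15a1*, with 19 for *Col4a3* and 5 for *Col4a4*. Of the 11 chains, *Col4a3* alone had reads in all 6 libraries.

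Fibroblast identity rests in part on these same chains, so other markers were examined. *Vim*, the intermediate filament of mesenchymal cells, had a mean of 115135 normalized counts, and *Fn1*, which encodes fibronectin, 114243. *Pdgfrb*, *Thy1* and *Pdgfra*, surface markers of fibroblasts, had 2150, 1092 and 278, and *S100a4* had 12857. The fibroblast proteoglycan genes *Dcn* and *Lum* were low, at 12.1 and 0.675, and *Lum* did not exceed the floor. Of 6 epithelial genes, *Epcam*, *Cdh1*, *Krt5* and *Krt18* were under the floor, at 0.176, 1.17, 0.527 and 1.92, while *Krt8* had 10.9 and *Krt14* 170. Of 3 endothelial genes, *Cdh5* and *Pecam1* had 107 and 15.9, and *Kdr*, at 1.36, was under the floor. The leukocyte genes *Cd68* and *Ptprc* had 164 and 11.1. *Des*, of muscle, had 119. Whether any of these marker signals moves with a collagen chain was not tested.

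Collagen chains need a dedicated set of enzymes and chaperones in the endoplasmic reticulum. Together with genes of secretion and propeptide removal, 29 genes were measured. Of these, 25 exceeded the floor, which 75.8% of all genes in the table also did. The 6 genes of propeptide removal, of which 3 exceeded it, are described further below. *Serpinh1*, which encodes the collagen chaperone HSP47, had a mean of 51954 normalized counts and 22847 per kb, rank 86, close to the level of *Col1a2*. The prolyl 4-hydroxylases, which stabilise the helix by hydroxylating proline, were led by their shared β subunit *P4hb* at 46419 normalized counts. Their catalytic subunits *P4ha1*, *P4ha2* and *P4ha3* had 5629, 3176 and 963. All 6 genes of the prolyl 3-hydroxylase complexes exceeded the floor, among them *Ppib* with 14689 and *Crtap* with 5095 normalized counts. Of the lysyl hydroxylases, which prepare cross-link sites, *Plod3* was the highest at 23692, followed by *Plod2* at 4846 and *Plod1* at 2644. *Glt25d1*, a galactosyltransferase for hydroxylysine, had 9085, whereas its paralog *Glt25d2* was listed at 1.15. The secretion genes *Mia3*, *Sec24d*, *Ctage5* and *Sec23a*, which help to load large procollagens into carriers, lay between 2322 and 7607.

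Genes of propeptide removal were uneven. *Pcolce*, an enhancer of the C-propeptide protease, had a mean of 36864 normalized counts and *Pcolce2* 6077. Of the proteases that cut off the N-propeptide, *Adamts14* had 712 and *Adamts2* was listed at 0.297, under the floor. *Tll1* and *Tll2*, which encode tolloid-like proteases, were also under it. *Bmp1* had no matching row and was not analysed here. All 8 receptor genes examined exceeded the floor, as did 75.8% of all genes in the table. The discoidin domain receptor *Ddr2*, which binds fibrillar collagen, had 14049 normalized counts and *Ddr1* 3883. The endocytic collagen receptor *Mrc2* had 5421. The integrin subunit *Itgb1*, shared by many integrins, had 49090. The α subunits that bind collagen were far lower, at 383 for *Itga1*, 85.1 for *Itga10*, 54.6 for *Itga11* and 7.14 for *Itga2*.

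**Figure D3:**
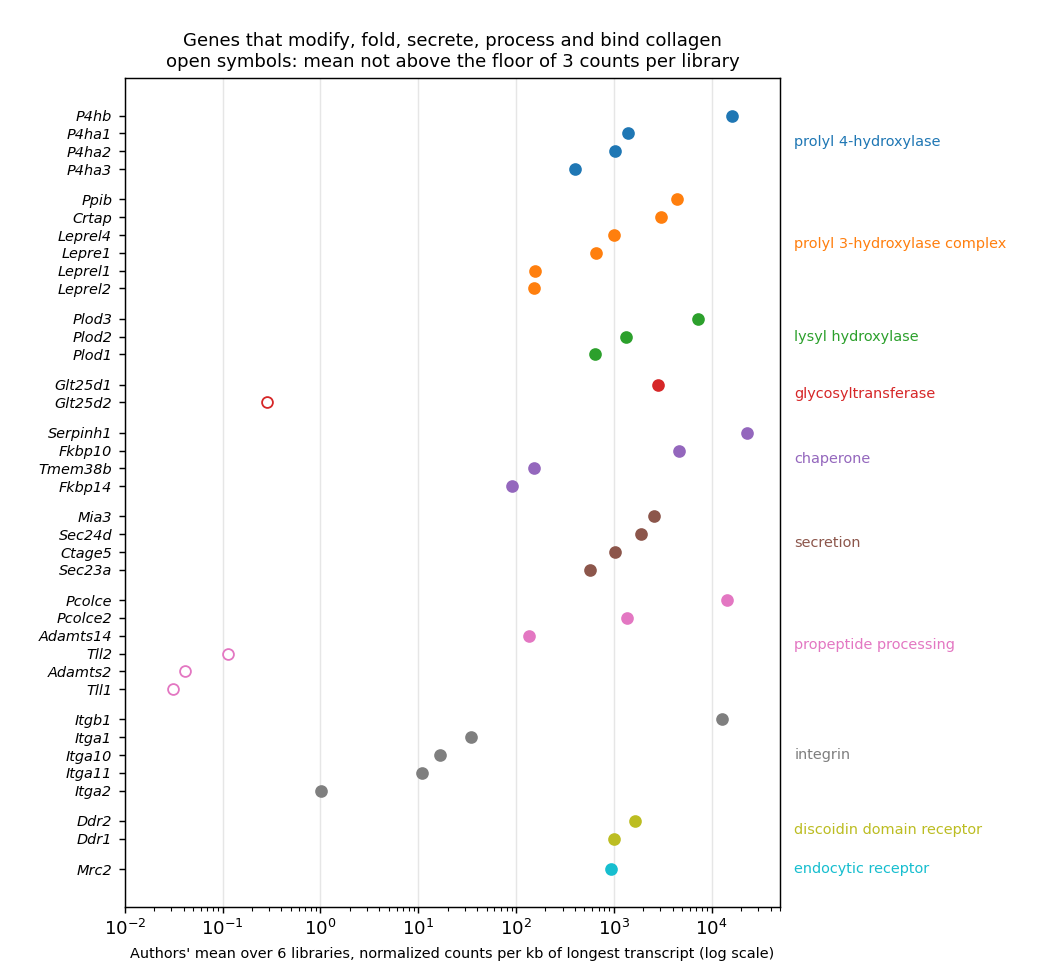
Normalized counts per kb of longest transcript (horizontal, log scale; authors' mean over 6 libraries) of 29 genes of collagen modification, folding, secretion and processing and of 8 collagen receptor genes, coloured by role, with open symbols for genes not above the floor of 3 counts per library. *Glt25d2*, *Tll1*, *Tll2* and *Adamts2* are the 4 open symbols, and *Serpinh1* is the point farthest to the right.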

How the data were processed

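RNAseq was performed on 3 *Ms4a15* OE and 3 control libraries. According to the paper's methods, the authors aligned reads to mm10 with STAR and obtained counts for each gene from HTSeq-count, whereas the submitters' processing notes name TopHat, Cufflinks, Cuffdiff, HTSeq and DESeq2. Whether counting used strand is not given in the sources used here. The signal in the table the authors deposited is DESeq2's mean over 6 libraries of counts divided by size factors. Its 5 other columns hold the authors' fold change, standard error, p-value, adjusted p-value and direction, and were not used. The planned edgeR test was not run, because it needs counts of single libraries.

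The size of 1 read was taken from the 6 commonest means below 0.2, each that of 1 read in 1 library (1267 genes). The size factors so obtained ran from 0.887 to 1.14, a ratio of 1.28, and total reads per library are unknown. Intervals were not computed, and the floor of 3 counts per library covers counting error only. Reads were recovered for chains with a mean below 4, and no error rate of this recovery is given here. Positions and lengths came from GENCODE M21 (GRCm38), in which 86.7% of the symbols and all 40 chains were found. For 7 of the 29 genes of collagen modification, folding, secretion and processing and for *Col6a2* among the chains, the longest transcript is not a coding one. Exons of 13 chains overlap those of another gene, so their counts are less certain. The listed chains *Col6a5*, *Col13a1*, *Col19a1*, *Col21a1* and *Col26a1*, and genes of the other lists without a matching row, such as *Bmp1* and *Adamts3*, were not analysed here.

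The members and the lists of related genes were chosen with earlier results of these data known. All chains are accounted for, and the genes named besides them are members of those lists and *Tcfl5*. Computations used Python 3.11.15 with numpy 2.4.6 and pandas 2.3.3, and figures matplotlib 3.10.9.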

Additional observations from a re-analysis of the deposited data

How the results depend on the processing

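The levels describe 1 mean per gene over both groups, so precision between libraries is unknown. No paired analysis was possible because the 1 column used pools all libraries. For the same reason, DESeq2 size factors, no filter, a replicate block and leaving out each replicate were planned and not run. With a floor of 10 counts per library, or a minimum of 10 normalized counts, 24 chains remained over it in place of 31. With coding length, the same 10 chains were the highest per kb. Their values were 1.03 to 2.29 times as high, and none could fall, since coding length cannot exceed that of the longest transcript. In normalized counts, the share of collagen signal was 82.0% for fibrillar, 1.48% for basement membrane, 1.52% for short-chain, 1.58% for FACIT, 10.3% for beaded, 0.0386% for transmembrane, 0.114% for multiplexin and 2.93% for anchoring fibril chains. Per kb of coding length, chosen after seeing the data, it was 82.9%, 1.28%, 2.98%, 1.47%, 9.80%, 0.0483%, 0.0943% and 1.45% in the same order. Without *Col1a2* it was 69.0%, 2.43%, 3.20%, 3.25%, 18.4%, 0.0744%, 0.220% and 3.41%. Fibrillar chains held the highest share in each of these settings. The order of the classes below the beaded chains changed only with coding length, where short-chain and FACIT chains came above the anchoring fibril chain. Leaving out *Col1a2* cannot change the order of the classes it does not belong to.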
